A study of Mus musculus with 4 samples.

Results

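Regulatory T (Treg) cells of the draining lymph node (LN) in which Foxp3 transcript was detected are described here, 1 day after oxazolone, a hapten that provokes contact hypersensitivity when it touches the skin. They were chosen by measured values, as the LN cells with a Foxp3 value above 0 and a value of 0 for Cd79a, a B cell gene, Lyz2, a myeloid gene, and Cd8a, a gene of cytotoxic T cells. The rule found 1444 of the 3963 LN cells, out of 14875 cells in the whole series. Of these, 684 came from the library labelled ICOS WT, which held 1897 cells, and 760 from the library labelled ICOS FC, which held 2066 cells. Both groups were mice of the C57BL/6 strain, the genotype of the ICOS FC group is given as ICOS-deficient, and both carried the YFP reporter used for the sort. Cervical draining LNs were taken, and live CD4+ TCRβ+ YFP+ cells were sorted at more than 95% purity. The sources used here do not give the promoter that drives YFP, the part of Icos that is deleted, the age of the mice or whether animals were pooled. A second pair of libraries, made from spleens of ICOS WT and ICOS FC mice at steady state, is used for comparison only. Every group was 1 library, so differences have no replicate check, no test was run, and every interval covers counting error only.

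Treg cells are CD4+ T cells that hold immune responses in check, and the transcription factor Foxp3 sets and keeps their identity. ICOS is a receptor of the CD28 family that appears on activated T cells, binds its ligand on antigen-presenting cells and signals strongly through phosphoinositide 3-kinase (PI3K). In Treg cells it is best known on the activated, effector fraction, which moves into inflamed tissue and makes suppressive cytokines.

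The members held 5760150 UMIs (unique molecular identifiers, each standing for 1 captured transcript) under the ICOS WT label and 7219431 under the ICOS FC label, with medians of 7049 and 7614.5 UMIs a cell. At this depth a gene without a UMI could still be present at 0.521 and 0.416 counts per 1000000 UMIs (CPM). Members made up 36.1% of the ICOS WT library (Clopper-Pearson 95% interval 33.9 to 38.3) and 36.8% of the ICOS FC library (34.7 to 38.9). The rule rests on few molecules: 436 of 684 and 494 of 760 members carried a single Foxp3 UMI, and 82 and 87 carried 3 or more. By the authors' clusters, the rule took 22.7% and 17.5% of the cells of LN cluster 7, and in the spleen 1.22% and 2.44% of those of cluster 4. The part of free Foxp3 RNA in these shares was not tested. The exclusion genes removed 24 of 708 and 44 of 804 cells with Foxp3. Cell barcodes were shared by the 2 LN libraries in 30 cases, and in 27 of them the smaller cell held under 10% of the UMIs of the larger. The larger cell was labelled ICOS FC in 21 cases and ICOS WT in 9, and 4 ICOS WT and 10 ICOS FC members carried such a barcode. Values without these cells are given for some genes and lists, and the numbers of calls without them are given at the end.

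The label of the sort was checked against Treg markers that the rule did not use. Ikzf2, which encodes the transcription factor Helios, stood at 1000.3 CPM under the ICOS WT label and 1119 CPM under the ICOS FC label. Il2ra, the high-affinity interleukin-2 receptor chain, stood at 581 and 720.4 CPM. Ctla4, an inhibitory receptor that Treg cells hold at high levels, reached 656 and 832 CPM. Tnfrsf18 (GITR) was at 682 and 739.9 CPM, Izumo1r (folate receptor 4) at 596 and 696 CPM, and Ikzf4, a relative of Helios, at 101 and 95.0 CPM. Gpr83, a receptor on Treg cells, reached 68.1 and 60.3 CPM. All 7 markers were thus present in both libraries. Of the members, 119 of 684 and 202 of 760 held at least 1 UMI of a longer set of B cell, myeloid and cytotoxic genes, among them Cd8b1 in 62 and 92 cells and Cd79b in 47 and 108. In CPM, the summed CD8 T and NK markers reached 17.2 and 18.7 CPM with Ncr1 at 0, the erythroid markers 0 and 0.139 CPM, and the platelet markers 0.521 and 0.139 CPM. Myeloid markers summed to 153 and 166 CPM, of which Cst3, a gene active in many cell types, made up 144 and 158 CPM. Plasma cell markers summed to 99.3 and 121 CPM, nearly all of it Xbp1 at 98.1 and 118 CPM. B cell markers summed to 200.2 and 293 CPM, with Ms4a1 at 0 and 0.416 CPM.

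Icos, the gene the genotype is named for, stands on chromosome 1 at 60977927 to 61000320, plus strand (GRCm38.p6). Its transcript was at 695 CPM in the members labelled ICOS WT and 1114 CPM in those labelled ICOS FC, a log2 ratio of 0.68 [0.63, 0.74]. Brackets hold counting intervals at the 95% level, and each ratio sets the ICOS FC library over the ICOS WT library. The other cells behaved the same way: Icos was at 532 and 804 CPM in the Foxp3-undetected LN cells and at 125 and 345 CPM in the Foxp3-detected spleen cells. So the library labelled ICOS-deficient held more Icos transcript in each of the 3 sets, which goes against the label as far as the transcript is concerned. The 3′ tags of this chemistry do not check a deletion elsewhere in the gene, and the protein was not measured. Every direction given here therefore rests on the labels. The ratio was also above 0 in each depth class: 0.46 [0.39, 0.53] for Icos in members with 10000 or more UMIs, 1.01 [0.91, 1.11] between 5000 and 10000, and 0.56 [0.37, 0.75] under 5000.

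A gene was counted as higher or lower when it reached 20 CPM in a library, differed by at least 1.5-fold and had an interval clear of equality. In the members, 122 of 5591 genes were higher (2.18%) and 125 were lower (2.24%) under the ICOS FC label, and the median over all these genes was -0.04. Setting that median to 0 moved the share of higher genes among the calls from 49.4% to 59.4%, while weighting every cell equally moved it to 34.7% (86 higher, 162 lower) and keeping cells with 4000 to 12000 UMIs to 34.9% (87 higher, 162 lower). At 2-fold, 31 genes were higher and 25 lower. Gene lists are described by those of their genes that reached 5 CPM in 1 library or both. Over all 8780 such genes, 1.39% were higher and 1.42% lower by the same rule, with a median of -0.05. This is the background for the counts of list members past the rule. No such background is given for counts of intervals above or below equality. At high counts an interval can clear equality at a small ratio, so those counts describe direction only.

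**Figure D1:**
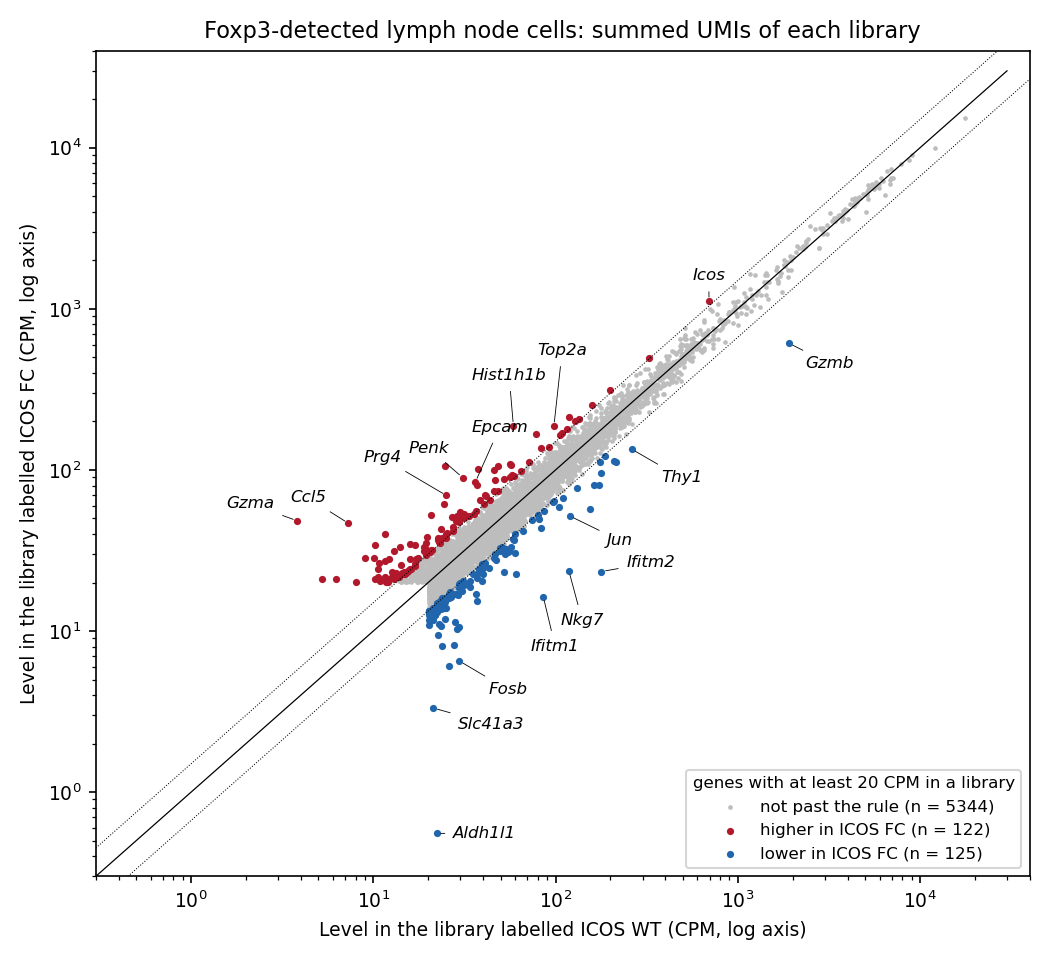
Each point is 1 of the 5591 genes that reached 20 CPM, by its level in the Foxp3-detected LN cells labelled ICOS WT (x axis) and ICOS FC (y axis), both in CPM on log axes. The solid line marks equal levels and the dotted lines 1.5-fold. The 122 higher genes (red) and 125 lower genes (blue) lie outside the dotted lines, with Gzmb and Icos the most abundant of those named and Aldh1l1 the farthest below the line.

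The Treg programme itself differed little. None of the 17 measured Treg identity genes passed the rule of size in either direction, and their median log2 ratio was 0.16, with 10 intervals above equality and 0 below. Tnfrsf4, which encodes the costimulatory receptor OX40, was at 1248 and 1628 CPM, a ratio of 0.38 [0.34, 0.43]. Lrrc32, which encodes GARP, the surface anchor of latent TGF-β, was at 118 and 163 CPM (0.47 [0.33, 0.60]), and Il2ra had a ratio of 0.31 [0.25, 0.37]. These are slight differences in 1 direction, all under 1.5-fold. Foxp3, which the rule used, was at 183 and 161 CPM and is given as a description only. The interleukin-2 and STAT5 list had 0 of 13 genes past the rule (median 0.09), and the TNF receptor list 0 of 11 (median 0.12).

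Effector and resting Treg genes were mixed. Of 20 effector genes, Batf was higher and Id2 and Ccr2 were lower, with a median of -0.18. Batf, an AP-1 family factor that drives effector Treg differentiation, was at 198 CPM under the ICOS WT label and 315 CPM under the ICOS FC label (0.67 [0.57, 0.77]). Id2, an inhibitor of E proteins, went the other way, from 162 to 80.2 CPM (-1.02 [-1.17, -0.87]). Ccr2, a receptor that guides cells into inflamed tissue, was at 178 and 95.7 CPM (-0.89 [-1.03, -0.75]). S100a4 was at 846 and 619 CPM and Lgals1 at 1318 and 1026 CPM, both lower by less than 1.5-fold. Among 13 resting and lymphoid homing genes, Tcf7 (97.0 and 62.9 CPM) and Ly6c1 (214 and 112 CPM) were lower and none was higher. Klf2, a factor that keeps T cells quiescent, was at 369.8 and 456 CPM (0.30 [0.22, 0.38]), under 1.5-fold.

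Cytotoxic granule genes gave some of the widest differences, and they ran in both directions. Granzymes are proteases that killer cells release into their targets, and some activated Treg cells make them too. Gzmb (granzyme B) was at 1909 CPM in the ICOS WT library and 611 CPM in the ICOS FC library, a ratio of -1.64 [-1.70, -1.59], in 207 of 684 and 198 of 760 members. Gzmb UMIs were thus found in similar numbers of cells in each library, while their sum differed. The Gzmb ratio was -1.96 [-2.02, -1.90] in members with 10000 or more UMIs, -1.18 [-1.29, -1.07] between 5000 and 10000 UMIs and 0.10 [-0.19, 0.40] under 5000 UMIs. It was -1.64 both in members with 1 Foxp3 UMI and in members with more. Nkg7, which encodes a granule membrane protein, was at 118 and 23.7 CPM (-2.32 [-2.57, -2.08]), in 106 and 36 cells. Ctsw, cathepsin W, was also lower, at 26.4 and 17.5 CPM.

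Gzma (granzyme A) ran against them, at 3.82 and 48.3 CPM (3.66 [3.04, 4.35]). It rested on 13 and 21 cells, and a single ICOS FC cell held 34.1% of that library's Gzma UMIs. Srgn, the proteoglycan serglycin that packs granule contents, was at 1642 and 1808 CPM and did not pass the rule. In all, 1 of 11 granule genes was higher and 3 were lower (median -0.22). Of the Gzmb cells, 61 of 207 and 24 of 198 also held Nkg7.

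The 3 measured genes of the Ifitm family were all lower, Ifitm1 on few cells. Ifitm proteins are small membrane proteins induced by interferon that block entry of viruses, and these 3 genes stand close together on chromosome 7. Ifitm2 was at 179 CPM under the ICOS WT label and 23.4 CPM under the ICOS FC label (-2.93 [-3.18, -2.70]). Ifitm3 was at 154 and 57.3 CPM (-1.43 [-1.60, -1.26]). Ifitm2 was found in 102 members labelled ICOS WT and 67 labelled ICOS FC, and Ifitm3 in 111 and 122, so for Ifitm3 the sum differed and the number of cells little. In the ICOS WT library 5 cells held 44.4% of the Ifitm2 UMIs and 42.0% of the Ifitm3 UMIs. Among members with 4000 to 12000 UMIs the Ifitm3 ratio was -0.32, and its call was lost. Ifitm1 was at 85.6 and 16.3 CPM (-2.39 [-2.69, -2.10]) but rested on 14 and 3 cells, and 1 cell held 98.3% of its UMIs in the ICOS FC library. Among members with at least 2 Foxp3 UMIs the Ifitm1 ratio was 2.32, so its direction is not settled. The family summed to 420.3 and 98.2 CPM. Its members are similar in sequence, so how the authors' counting assigned reads among them could shift single values.

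The promoters of these 3 genes are shown because each gene passed the rule as lower, while the wider interferon list was lower by less. As given above, the direction of Ifitm1 is not settled. Each promoter runs from 250 bases before to 50 after the start (RefSeq, GRCm38.p6), 5′ to 3′ on the strand of the gene. Capitals mark GAAA followed, after any 2 bases, by a further GAAA, a short form of the element that interferon-activated factors bind, searched on both strands with overlapping matches counted.
Ifitm2, chr7:140955912-140956211, minus strand: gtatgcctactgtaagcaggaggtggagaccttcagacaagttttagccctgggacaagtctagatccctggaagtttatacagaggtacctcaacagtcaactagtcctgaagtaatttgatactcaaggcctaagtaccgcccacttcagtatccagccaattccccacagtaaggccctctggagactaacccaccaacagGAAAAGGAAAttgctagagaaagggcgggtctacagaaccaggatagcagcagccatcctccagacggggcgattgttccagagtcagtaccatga
Ifitm1, chr7:140967826-140968125, plus strand: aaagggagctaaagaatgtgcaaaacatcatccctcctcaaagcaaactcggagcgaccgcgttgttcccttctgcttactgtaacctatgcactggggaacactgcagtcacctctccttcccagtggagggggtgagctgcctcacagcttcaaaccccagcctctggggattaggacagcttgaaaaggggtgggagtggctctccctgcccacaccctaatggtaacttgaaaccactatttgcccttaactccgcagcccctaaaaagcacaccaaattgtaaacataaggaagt
Ifitm3, chr7:141010695-141010994, minus strand: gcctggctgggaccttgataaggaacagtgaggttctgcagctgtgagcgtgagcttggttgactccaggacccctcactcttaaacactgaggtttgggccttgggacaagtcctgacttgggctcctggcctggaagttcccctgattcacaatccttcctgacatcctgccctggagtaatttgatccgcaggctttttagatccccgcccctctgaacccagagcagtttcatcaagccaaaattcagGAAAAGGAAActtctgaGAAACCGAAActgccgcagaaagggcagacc
Ifitm2 held 1 match, Ifitm3 held 2 and Ifitm1 held 0. The motif was in 1131 of 32851 promoters of this length (3.44%), in 2 of 8 promoters of the 6 Ifitm genes, in 8 of 15 promoters of the 12 type I interferon genes found in the table, and in 0 of 15 promoters of the proliferation list. A match describes the letters only and is neither a site nor a cause.

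Type I interferon response genes were mostly lower, by steps that differed in size. Of 18 measured genes, 0 were higher and 2 passed the rule as lower, but 16 of the 18 intervals lay below equality and the median was -0.27. Ifit3, an antiviral protein that binds RNA complexes, was at 187 and 122 CPM (-0.61 [-0.74, -0.49]), and its near-identical neighbour Ifit3b at 52.6 and 30.1 CPM (-0.81 [-1.07, -0.55]); reads could be split between these 2 copies. Ifi27l2a, the most abundant gene of the list, was at 6427 and 5060.2 CPM (-0.34 [-0.37, -0.32]). Isg15, a ubiquitin-like modifier, was at 735 and 568 CPM (-0.37 [-0.43, -0.31]). Among 16 GTPases induced by interferon gamma, Tgtp1 alone was lower, at 31.4 and 19.3 CPM, and the median was -0.21. Gbp3 was at 104 and 139.9 CPM (0.43 [0.28, 0.58]), so that family was not uniform.

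Aldh1l1 had the most negative ratio of the genes past the rule. It encodes a folate enzyme, best known as a marker of astrocytes in the brain, and lies on chromosome 6 at 90486427 to 90600203. It was at 22.2 CPM in 108 cells of the ICOS WT library and at 0.554 CPM in 4 cells of the ICOS FC library, a ratio of -5.33 [-7.22, -3.93]. The gene next to it on the same strand, Slc41a3, which encodes a magnesium transporter and spans 90604725 to 90646412, was at 21.4 and 3.32 CPM (-2.68 [-3.38, -2.04]). Their starts are 118298 bases apart. Aldh1l1 was at 18.1 and 0.452 CPM in the Foxp3-undetected LN cells and at 16.9 and 0.151 CPM in the spleen members, the last from a single UMI. Slc41a3 was at 17.5 and 3.84 CPM, and at 15.9 and 6.80 CPM, in the same 2 sets. Both genes were thus lower under the ICOS FC label in LN and spleen, which are separate pairs of libraries. Of the Aldh1l1 cells labelled ICOS WT, 24 also held Slc41a3.

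Of the follicular genes 1 was lower and 0 were higher past the rule, and of the costimulatory genes 4 were lower and 1 was higher. All 7 measured follicular Treg genes had intervals below equality, with a median of -0.97, although only Pdcd1 passed the rule. Pdcd1 (PD-1), an inhibitory receptor, was at 39.2 and 20.4 CPM (-0.95 [-1.26, -0.64]). Bcl6, the factor that sets the follicular fate, was at 7.29 and 2.77 CPM (-1.40 [-2.24, -0.60]), and Tox2 at 13.5 and 6.37 CPM (-1.09 [-1.65, -0.54]). Sh2d1a, which encodes the adaptor SAP, was at 222 and 193 CPM. Of 15 genes for costimulatory and inhibitory receptors, Lag3 was higher, and Pdcd1, Cd6, Cd96 and Cd226 were lower. Cd6, a scavenger-type receptor on T cells, was at 209 and 113 CPM (-0.89 [-1.02, -0.76]), and Cd96 at 59.9 and 30.5 CPM (-0.97 [-1.23, -0.73]). Cd160 was at 7.12 and 0.416 CPM, the latter from 3 UMIs (-4.10 [-6.43, -2.45]). Cd28, the parent of the family, was at 233 and 201 CPM (-0.21 [-0.32, -0.10]).

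Surface proteins held by a lipid anchor were also lower more often than higher, with 4 lower and 1 higher of 12. Thy1 (CD90), which marks T cells in the mouse, was at 261 CPM under the ICOS WT label and 135 CPM under the ICOS FC label (-0.96 [-1.08, -0.84]). Its ratio varied little with depth, from -1.08 to -0.91 over the 3 depth classes. Ly6c1 was at 214 and 112 CPM (-0.93 [-1.06, -0.80]). Ly6c2, a near copy of Ly6c1 with which reads could be shared, was at 27.8 and 8.17 CPM, and 1 cell held 44.4% of its ICOS WT UMIs. Nrn1, which encodes neuritin, was at 25.9 and 6.09 CPM (-2.09 [-2.61, -1.59]). Ly6a (Sca-1) was at 1745 and 1269.9 CPM (-0.46 [-0.50, -0.42]), under the fold that the rule asks. Of the conventional CD4 T cell markers, Cd40lg, the ligand through which helper T cells license B cells, was at 28.0 and 11.4 CPM (-1.30 [-1.70, -0.91]). Igfbp4 and Dapl1 were lower too, making 3 of 6 (median -0.56), and Cd4 itself was at 175 and 127 CPM (-0.46 [-0.59, -0.33]). Receptors for trafficking had 0 higher and 2 lower of 17: Ccr2, given with the effector genes, and Cxcr6, which was at 60.9 and 22.6 CPM (-1.43 [-1.71, -1.16]). Of 11 integrins, Itgb3 alone passed, at 26.2 and 16.6 CPM, while Itgb1 was at 209 and 282 CPM (0.43 [0.33, 0.54]).

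Genes that T cell receptor signalling switches on were split. AP-1 is a dimer of Fos, Jun and Batf family proteins that is assembled within minutes of activation. Fos was at 37.0 and 15.4 CPM (-1.27 [-1.61, -0.93]), and Fosb at 29.7 and 6.51 CPM (-2.19 [-2.69, -1.72]). Jun, their usual partner, stood at 119 and 51.8 CPM (-1.21 [-1.39, -1.02]). Jun UMIs were found in 317 of 684 and 204 of 760 members, so this difference was widely spread over cells. Junb, at 441 and 364 CPM, and Jund, at 759.9 and 746 CPM, did not pass, and Batf was higher, which gave 1 higher and 3 lower of 7. Ppp1r15a, a stress gene that restarts translation, was at 42.9 and 24.7 CPM (-0.80 [-1.08, -0.51]), and it alone passed among 13 immediate early and stress genes. Hsp90aa1, a chaperone, was at 511 and 762 CPM (0.58 [0.51, 0.64]), just under 1.5-fold.

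Other activation genes were higher. Myc, which drives growth after activation, was at 57.3 and 107 CPM (0.90 [0.71, 1.09]). Cd83 was at 25.2 and 40.0 CPM (0.67 [0.38, 0.97]), while Egr1 was lower, at 58.9 and 36.8 CPM (-0.68 [-0.91, -0.44]), so that 2 of 13 receptor-induced genes were higher and 1 lower. The Egr1 ratio was -0.26 [-0.55, 0.04] in members with 1 Foxp3 UMI and -1.44 [-1.86, -1.02] in members with 2 or more. Nfkbid, an atypical inhibitor of NF-κB that Treg development needs, was at 41.1 and 70.1 CPM (0.77 [0.54, 1.00]), and it alone passed among 14 NF-κB genes. With at least 2 Foxp3 UMIs the Nfkbid ratio was 0.22 [-0.14, 0.58], which does not pass the rule. The PI3K, FoxO and mTORC1 list, which covers the pathway that ICOS is known for, had 0 higher and 1 lower of 20, with a median of -0.17 and 10 intervals below equality. Ddit4, which restrains mTORC1, stood at 86.1 and 55.5 CPM (-0.63 [-0.83, -0.44]). Foxo1 was at 106 and 77.0 CPM and Pik3r1, a PI3K regulatory subunit, at 116 and 84.6 CPM, both lower by less than 1.5-fold.

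Suppressive molecules and secreted factors gave 3 higher and 1 lower of 14, and the lower one rested on 1 cell. Penk, the precursor of enkephalin peptides and a gene of tissue Treg cells, was at 30.9 and 89.6 CPM (1.54 [1.29, 1.78]), in 34 and 37 cells. Of its ICOS FC UMIs 57.7% came from 5 cells, and in members with at least 2 Foxp3 UMIs the Penk ratio was 0.26 [-0.14, 0.66], which does not pass the rule. Ebi3, a subunit of interleukin-35, was at 19.6 and 38.2 CPM (0.96 [0.64, 1.29]), and Lag3, whose product binds MHC class II and inhibits, at 56.1 and 90.2 CPM (0.69 [0.49, 0.88]). With at least 2 Foxp3 UMIs the Lag3 ratio was 0.30 [-0.02, 0.62], also not past the rule, and that of Ebi3 was 1.18 [0.65, 1.74]. Il12a, the partner subunit of Ebi3 in interleukin-35, had no UMI in either library. Il10, the main suppressive cytokine of effector Treg cells, was at 52.1 and 23.4 CPM (-1.15 [-1.43, -0.88]), but 1 cell held 72.7% of its ICOS WT UMIs, and without the top cell of each library the ratio was 0.41. It was found in 34 and 48 cells.

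Among 7 measured chemokines and cytokines, Ccl5 and Cxcl10 were higher. Ccl5, which draws effector T cells, was at 7.29 and 46.7 CPM (2.68 [2.21, 3.18]), in 28 and 46 cells. In the ICOS FC library 5 cells held 67.4% of the Ccl5 UMIs. Cxcl10, the interferon-induced ligand of CXCR3, was at 48.3 and 105 CPM (1.13 [0.93, 1.33]), although the type I interferon list as a whole stood lower. It was found in 74 and 97 cells, and 5 cells held 50.7% of its UMIs under the ICOS WT label and 44.0% under ICOS FC. Of 9 Th1-type genes Ccl5 was higher and Nkg7 lower (median -0.38), with Cxcr3 at 61.5 and 45.4 CPM and Stat4 at 96.5 and 74.2 CPM.

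Several genes outside these programmes were higher in many cells. Prg4, which encodes lubricin, the lubricating proteoglycan of joints, was at 25.2 CPM in 73 cells of the ICOS WT library and 69.4 CPM in 158 cells of the ICOS FC library (1.46 [1.19, 1.74]). Epcam, an adhesion molecule of epithelial cells, was at 36.3 CPM in 95 cells and 83.9 CPM in 201 cells (1.21 [0.98, 1.44]). No keratin gene on the stroma list was found: Krt5 and Krt14 had no UMI in either library. Il1r2, the decoy receptor that soaks up interleukin-1, was at 24.3 and 61.5 CPM (1.34 [1.06, 1.62]), in 53 and 126 cells. Along with Nfil3, at 19.4 and 31.2 CPM, it made 2 higher of 9 genes of ST2+ tissue Treg cells and interleukin-1 family receptors. Plac8 was at 11.6 and 39.9 CPM (1.78 [1.39, 2.18]). Without the shared barcodes the ratios of Prg4, Epcam, Il1r2 and Plac8 were 1.43, 1.22, 1.21 and 1.73.

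B cell markers were higher as a list, with a median of 1.24 over 6 genes and 2 past the rule, and the MHC class II genes among them depended on few cells. Cd79b, the partner of the excluded Cd79a in the B cell receptor, was at 10.6 and 24.1 CPM, in 47 and 108 cells. It kept its call under each of the 14 alternatives that gave a value, changes of threshold not counted. The MHC class II gene H2-Ab1 was at 6.25 and 21.1 CPM (1.75 [1.22, 2.32]), and 1 cell held 55.9% of its ICOS FC UMIs. Its companions H2-Aa and H2-Eb1 likewise had 56.0% and 50% of their ICOS FC UMIs in 1 cell. Without the shared barcodes the H2-Ab1 ratio was 0.57 and the list median 0.54, and the median was 0.11 when cells with any of 11 B cell, myeloid and cytotoxic genes were left out. The part of such cells in the other results was not tested.

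Cell division genes were the list with the most higher members, and the difference came with the deepest cells. Of 17 proliferation genes, 9 were higher and 0 lower, with a median of 0.66. Mki67, the usual marker of dividing cells, was at 46.7 and 86.8 CPM (0.90 [0.69, 1.11]), and Top2a, a topoisomerase that untangles replicated DNA, at 97.9 and 187 CPM (0.93 [0.79, 1.08]). Birc5 (survivin), a part of the chromosomal passenger complex, was at 37.5 and 101 CPM (1.43 [1.20, 1.65]), and Ccna2 (cyclin A) at 15.8 and 34.9 CPM (1.14 [0.79, 1.51]). Outside the list, the linker histone gene Hist1h1b was at 58.7 and 188 CPM (1.68 [1.51, 1.85]). The mitotic kinase gene Plk1 was at 5.21 and 20.9 CPM (2.01 [1.43, 2.62]) and Cenpf, which encodes a kinetochore protein, at 10.2 and 34.4 CPM (1.75 [1.33, 2.18]). Hmmr, which encodes a protein of the mitotic spindle, was at 9.03 and 28.3 CPM (1.65 [1.20, 2.11]), in 11 and 32 cells. All of these genes were detected in at most 136 members of either library.

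The share of members with both Mki67 and Top2a was close under both labels, with overlapping intervals. Single division genes differed more: Top2a was found in 90 and 136 members, Cenpf in 15 and 37 and Plk1 in 15 and 33. Ccna2 was found in 21 and 36 members, whereas Mki67 was found in 90 and 81. Cells with both Mki67 and Top2a numbered 43 of 684 members (6.29%, 4.59 to 8.37) under the ICOS WT label and 51 of 760 (6.71%, 5.04 to 8.73) under the ICOS FC label. They were deep, with medians of 18303 and 22103 UMIs, and so weigh heavily in summed counts. The list median was 0.23 when every member counted equally, 0.44 without shared barcodes, -0.28 among members with 4000 to 12000 UMIs and 0.09 without cells holding Mki67 or Top2a. Mki67 and Top2a are themselves on the list, so the last value is no independent check of it. In the window of 4000 to 12000 UMIs the ratio of Mki67 was -1.64 and that of Birc5 -2.59, whereas Hmmr was at 1.41 there and at 1.77 without cells holding Mki67 or Top2a. Depth moved with this result, and its part in it was not tested.

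**Figure D2:**
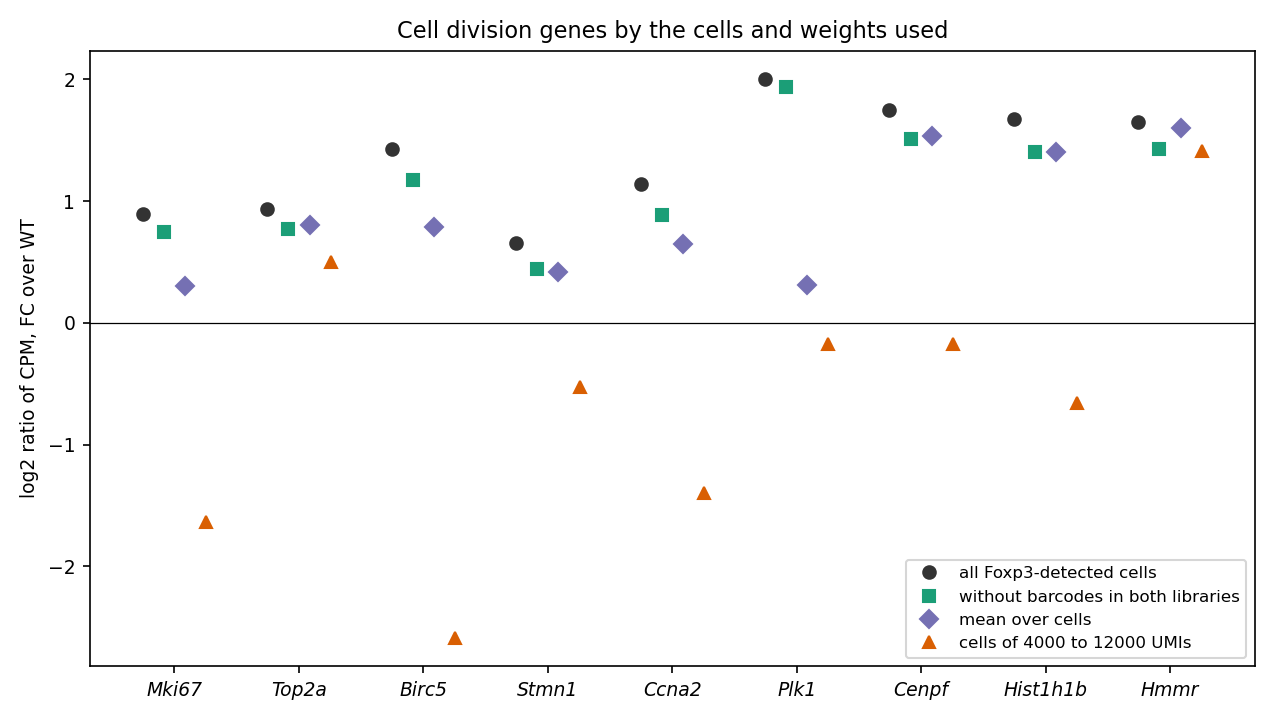
The y axis gives the log2 ratio of levels (ICOS FC to ICOS WT) of 9 cell division genes in the Foxp3-detected LN cells. Circles use all cells, squares leave out barcodes found in both libraries, diamonds weight every cell equally and triangles use cells with 4000 to 12000 UMIs. All 9 circles lie above 0, and every triangle except those of Top2a and Hmmr lies below it.

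Metabolic lists showed little. Of 15 glycolysis genes 0 passed in either direction (median 0.00), with Gapdh at 1257 and 1229 CPM and Ldha, lactate dehydrogenase, at 608 and 617 CPM. Cholesterol and fatty acid synthesis had 0 higher and 2 lower of 15 (median -0.19): Scd2, a desaturase, at 33.9 and 18.8 CPM (-0.85 [-1.17, -0.52]), and Fdps, at 49.8 and 32.6 CPM (-0.61 [-0.87, -0.36]). Of 15 apoptosis genes, Bid, which links death receptors to mitochondria, was higher, at 15.5 and 23.5 CPM (0.61 [0.23, 0.99]). Th17-type genes had 0 of 3 past the rule, with Il17a and Il17f at 0 in both libraries.

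**Figure D3:**
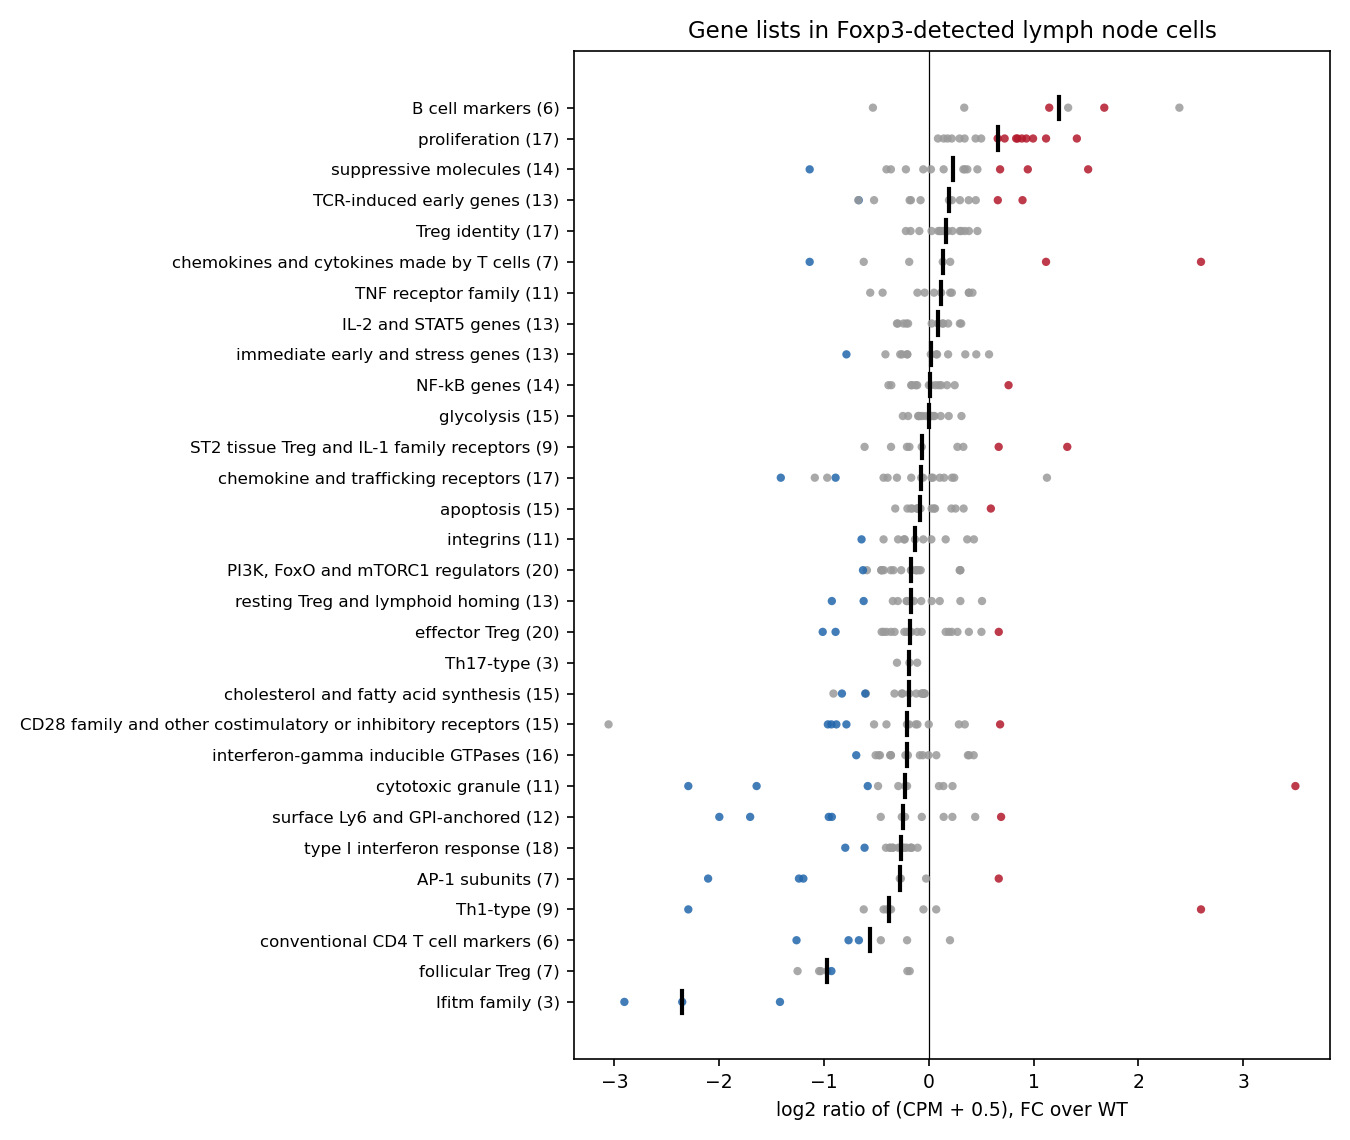
Rows are gene lists, with the number of members at 5 CPM or more in brackets, and the x axis is the log2 ratio (ICOS FC to ICOS WT) of CPM + 0.5 in the Foxp3-detected LN cells. Points are genes (red past the rule as higher, blue as lower, grey neither) and black bars are list medians. The medians run from -2.35 for the Ifitm family to 1.24 for the B cell markers, and the list medians of glycolysis and NF-κB genes lie at 0.00 and 0.01.

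The deposited clusters gave a view within the members. They were formed by the authors from the same genes, so their sizes are no finding. Clusters 0, 1 and 2 had at least 50 members in each library: 236 and 306 cells, 145 and 130 cells, and 148 and 62 cells. Icos was at 1227 and 1652 CPM in cluster 0, where it was most abundant, 52.6 and 99.1 CPM in cluster 1 and 285 and 614 CPM in cluster 2, and its 3 intervals lay above equality. Thy1 was lower in all 3, with ratios of -0.93, -0.57 and -0.93. Gzmb was concentrated in cluster 0, at 3789 and 1140 CPM (-1.73 [-1.79, -1.67]), while clusters 1 and 2 held 13.4 and 11.1 CPM, and 29.8 and 62.4 CPM. Ifitm2 likewise had 417 and 39.4 CPM in cluster 0 (-3.40 [-3.70, -3.12]) against 4.78 and 3.34 CPM in cluster 1. Nkg7 was lower in cluster 0, at 228 and 49.1 CPM, and in cluster 2, at 78.4 and 11.7 CPM. Isg15 was lower in all 3, with ratios of -0.62, -0.64 and -0.44. Prg4 had ratios of 1.70 in cluster 0 and 3.38 in cluster 2, and 0.13 [-0.60, 0.86] in cluster 1. Ccr2 was at 431 and 189 CPM in cluster 0, 0.956 and 4.45 CPM in cluster 1 and 12.9 and 25.4 CPM in cluster 2. Pdcd1 ran the other way about, with 39.3 and 32.9 CPM in cluster 0 (-0.25 [-0.70, 0.19]) and 93.3 and 21.5 CPM in cluster 2 (-2.12 [-3.17, -1.22]). Differences between clusters were not tested.

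**Figure D4:**
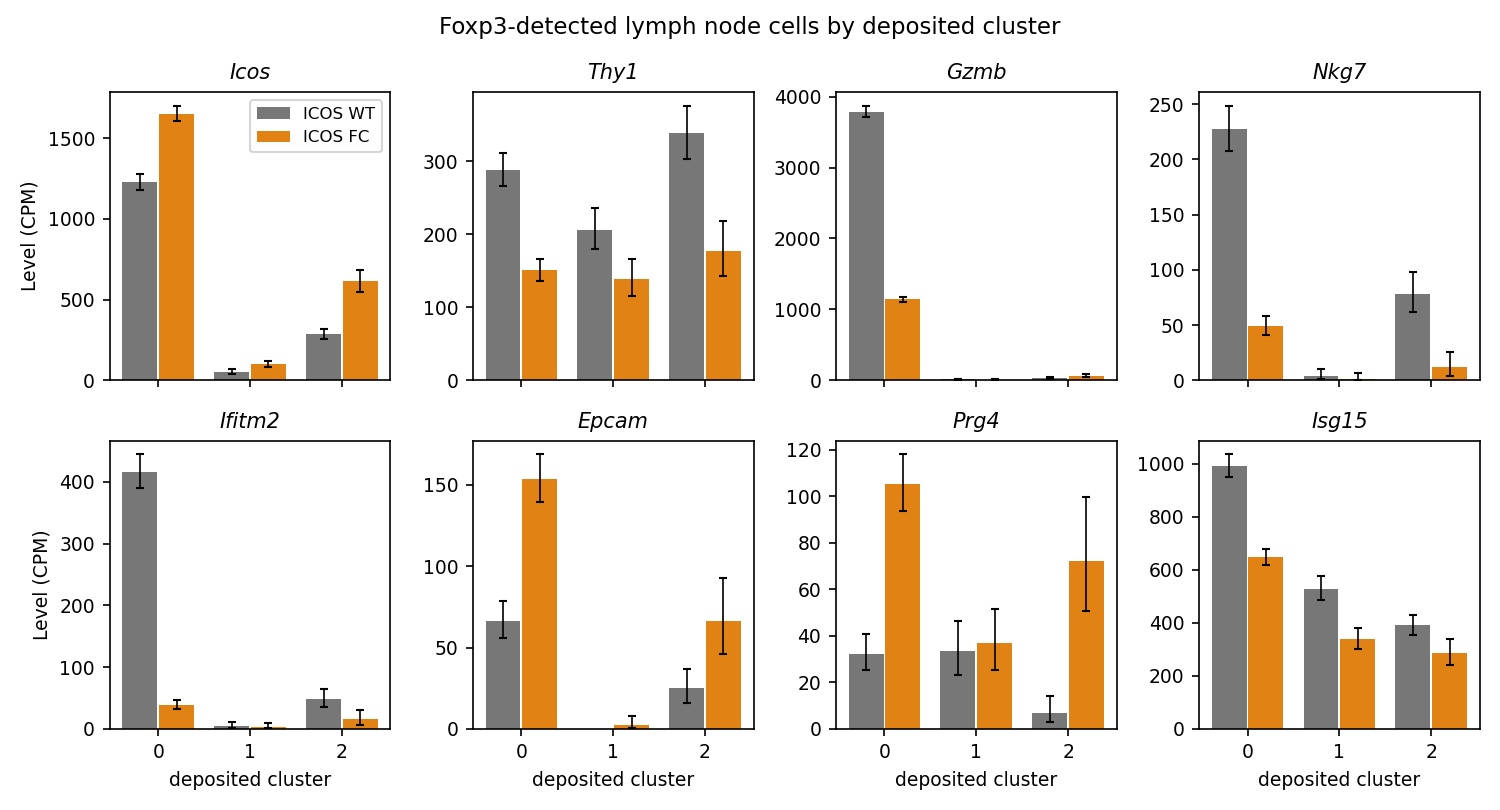
Bars give the level in CPM of 8 genes in the Foxp3-detected LN cells of deposited clusters 0, 1 and 2, grey for the library labelled ICOS WT and orange for ICOS FC, with 95% counting intervals. Of the 3 clusters, Gzmb and Ifitm2 are high in cluster 0, whereas Thy1 and Isg15 are lower under the ICOS FC label in each of the 3 clusters.

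The Foxp3-undetected LN cells, 1138 and 1193 cells of the same libraries, gave 61 genes higher (1.12%) and 78 lower (1.43%) of 5460. These cells had a value of 0 for Foxp3 and also for the exclusion genes Cd79a, Lyz2 and Cd8a. They share libraries with the members and come from the same sort, so their values stand beside those of the members without further comparison. Il2ra was at 365 and 507 CPM there, and Ikzf2 at 803 and 929 CPM. Gzmb was at 905 and 298 CPM, Nkg7 at 69.8 and 13.4 CPM, Thy1 at 275 and 142 CPM, Epcam at 18.2 and 49.6 CPM and Prg4 at 22.9 and 57.3 CPM, each in the direction seen in the members. Penk went the other way, at 65.0 and 30.9 CPM, and H2-Ab1 did so too, at 15.5 and 5.87 CPM. Of the genes with 5 CPM there, 0.702% were higher and 0.898% lower. The type I interferon list had a median of -0.31, and the proliferation list one of 0.42 with 6 of 17 genes higher.

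Spleen members at steady state, 1022 and 1271 cells of another pair of libraries, gave 69 genes higher (1.30%) and 34 lower (0.640%) of 5309. Over genes with 5 CPM the shares were 0.810% and 0.399%. Of the 5092 genes tested in both tissues, 55 were higher in the LN members and 59 in the spleen members. Higher in both were 17 genes, which is 30.9% of those 55 and 28.8% of those 59. Over all tested genes, 2.18% and 2.24% were higher and lower in the LN members, and 1.30% and 0.640% in the spleen members. The 17 genes included Icos, Batf, Lag3, Cd83, Cxcl10, Ccl5, Prg4, Epcam and Il1r2. In the lower direction 10 genes were shared, 12.5% of 80 in the LN and 37.0% of 27 in the spleen. Thy1, at 235 and 150.4 CPM in the spleen, Pdcd1, at 48.3 and 23.4 CPM, and Nkg7, at 58.4 and 26.5 CPM, were among them. Tissue and challenge differ together between these pairs of libraries and cannot be told apart.

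Other genes differed between the tissues in direction. Of the 5092 genes tested in both tissues, 7 were lower in the LN members and higher in the spleen members. They were Fos, Fosb, Jun, Ppp1r15a, Rgs2, Coq10b and Ifit3, which made up 8.75% of the 80 lower LN genes and 11.9% of the 59 higher spleen genes. Fos was at 24.8 and 84.1 CPM in the spleen (1.76), Jun at 86.2 and 199 CPM (1.20), and the AP-1 list had 5 of 7 genes higher there, with a median of 0.99. Penk and Myb were higher in the LN members and lower in the spleen members, Penk at 38.4 and 15.4 CPM there. These 2 genes made up 3.64% of the 55 higher LN genes and 7.41% of the 27 lower spleen genes. Over all tested genes the shares were 2.24% lower and 2.18% higher in LN members, and 1.30% higher and 0.640% lower in spleen members. With at least 2 Foxp3 UMIs asked of each spleen cell, the Penk ratio was 0.77. Gzmb was near absent from the spleen members, at 2.32 and 4.08 CPM, and Ifitm2 was at 14.1 and 8.47 CPM. These opposite signs were not tested.

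**Figure D5:**
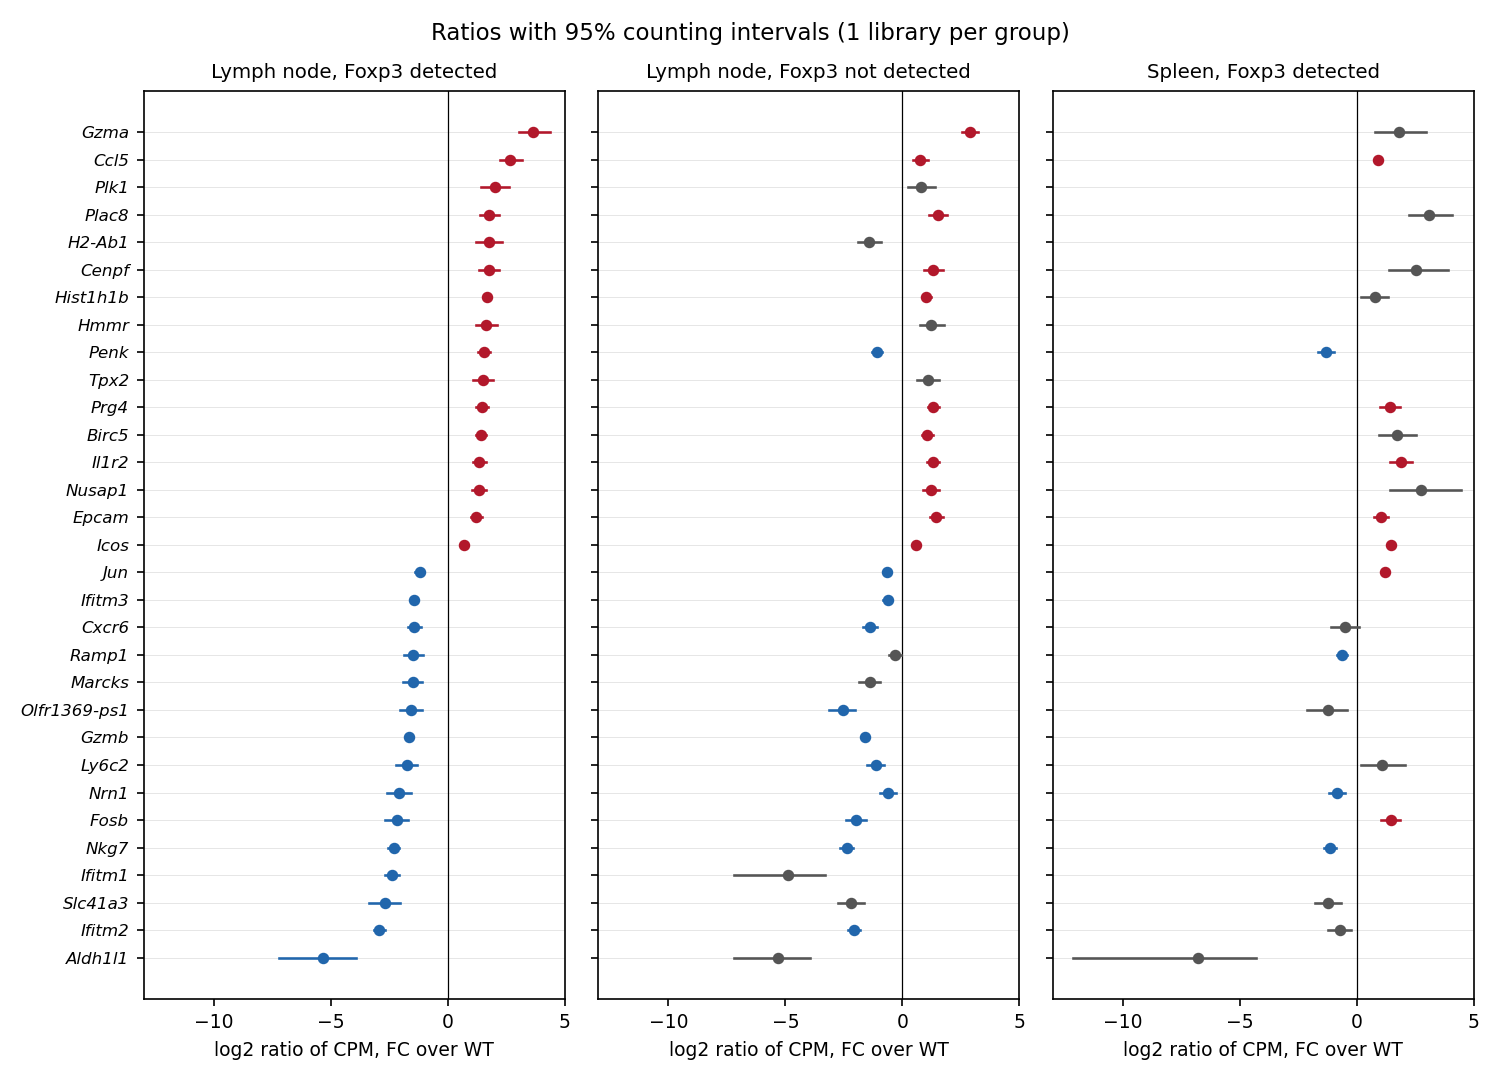
Points are log2 ratios of levels (ICOS FC to ICOS WT) with 95% counting intervals. Genes are Icos and the 15 highest and 15 lowest of the Foxp3-detected LN cells. Panels show those cells (left), the Foxp3-undetected LN cells (middle) and the Foxp3-detected spleen cells (right). Red and blue mark genes past the rule as higher and lower, and grey those not past it. Genes under 5 CPM in both libraries, or with no finite ratio, are not drawn. Penk, Jun and Fosb change side between the left and right panels.

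Changes of threshold (5 CPM, 50 CPM and 2-fold) aside, 15 alternatives gave values for genes. Of the 68 named genes that passed the rule in the members, 28 kept their call under every one of these that gave a value. They included Icos, Ccl5, Prg4, Epcam, Il1r2, Plac8 and Cxcl10 as higher, and Gzmb, Nkg7, Ifitm2, Ifit3b, Aldh1l1, Slc41a3, Thy1, Cd6, Cd96, Cd40lg, Pdcd1, Cxcr6, Ccr2, Id2, Fos, Fosb and Jun as lower. Of the genes listed here, Icos, Ifit3b, Thy1, Cd6, Cd96, Pdcd1 and Ccr2 differed by less than 2-fold. Ccl5, Plac8, Aldh1l1, Slc41a3, Cd40lg, Pdcd1, Fos and Fosb were under 50 CPM in both libraries. The other 40 of the 68 lost their call under at least 1 of the 15 alternatives. The call of Ctsw held in 4 of 15 alternatives, those of Tcf7 and Fdps in 8, Ddit4, Dapl1 and Il10 in 9, Bid in 10 and Lag3 in 11. H2-Ab1 and Plk1 held theirs in 7, and Stmn1 in 8.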

How the data were processed

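Gene expression was measured in 4 droplet libraries, 1 per group, made with 10x Genomics 3′ chemistry, version 3.1, per the labels' protocols. Per the submitters' processing notes the build was GRCm38.p6 (mm10), and the tools named are Seurat 3.0, R 3.6.1 and Cell Ranger 4.0.0. What each tool did, its parameters and whether doublets were removed is not stated in the sources used here; no doublet caller was run. Judged by the values, the deposited expression tables hold natural log values: ln of 1 plus the UMIs of a gene in every 10000 of its cell. A deposited cell table gives UMI counts, numbers of genes, the percent of mitochondrial counts and cluster numbers. The authors' entries Control and KO in it were taken as ICOS WT and ICOS FC; only the words support that match. The deposited cells had at least 500 UMIs and at most 9.99% mitochondrial counts, and no further filter was applied.

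Each log value was inverted and multiplied by the cell's count. Within 0.001, 100% of 8798056 LN values and 17846401 spleen values came out whole. For each library the member cells' counts were added up and scaled to CPM. No test was run: log2 ratios carry exact conditional Poisson intervals and shares Clopper-Pearson intervals, both at 95% and for counting error only. They treat each UMI as independent and are too narrow where few cells hold a gene. List medians use 0.5 CPM added to each level. Named genes were Icos, Foxp3, the 15 genes highest and the 15 lowest when ranked on the bound of the interval closest to equality, at most 4 genes of each list on that bound, and list members with at least 200 CPM. The ranking left out receptor and immunoglobulin segments, Gm and Rik models, and haemoglobin, sex-linked and mitochondrial genes. Members and lists were chosen with earlier results of these data known. Genes named only as part of a count or as a marker of a cell type stand outside the rule, and a few genes it selects are left unreported. Gene positions come from the GENCODE annotation of GRCm38.p6. The rule of size was tested on simulated data for the LN comparison. Over 5591 genes it recovered 100% of 200 genes changed by 2-fold or 3-fold and called 0.0371% of the others. In that simulation 95.5% of the intervals covered the set ratio, whereas in these data they are too narrow where few cells hold a gene. The 0.0371% is thus no rate of false calls in these data. Python 3.11.15, numpy 2.4.6, scipy 1.17.1, pandas 2.3.3 and matplotlib 3.10.9 were used. The alternatives numbered 14, with 4 more chosen after seeing the data: 2 on shared barcodes, 1 on the top cell of each gene and 1 on dividing cells.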

Additional observations from a re-analysis of the deposited data

Results flagged for a closer look

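In 6 of the genes named by the rule the LN members and the spleen members differed in opposite directions under the same labels. Each comparison is 1 library against 1 library, and the difference between tissues was not tested. The log2 ratio of Penk was 1.54 among LN members but -1.32 among spleen members. With at least 2 Foxp3 UMIs it was 0.26 and 0.77, so the opposite signs were not seen there. The AP-1 genes went the other way: Fosb was at -2.19 in the LN and 1.44 in the spleen, Jun at -1.21 and 1.20, and Fos at -1.27 and 1.76. Ppp1r15a was at -0.80 and 1.41, and Ifit3 at -0.61 and 0.92. In the spleen members Fosb was at 11.3 and 30.5 CPM, Ppp1r15a at 26.2 and 69.7 CPM and Ifit3 at 10.8 and 20.4 CPM.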

How the results depend on the processing

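Each group is 1 library, so differences between animals, sorts and libraries cannot be told apart from the genotype. No paired analysis was possible because each group holds 1 library and the labels give no replicate numbers. The counts of genes higher and lower in the LN members (122 and 125) became 272 and 379 at a minimum of 5 CPM, 50 and 37 at 50 CPM, 31 and 25 at 2-fold, and 206 and 263 with at least 2 Foxp3 UMIs. Without ribosomal and mitochondrial genes in the total 192 were higher, and with clusters weighted equally 190 were lower. Leaving out cells with shared barcodes gave 93 higher and 119 lower genes, with 92 of the 122 and 111 of the 125 kept. The genes called also changed: of the 122 higher genes, 61 were called with clusters weighted equally, 61 with cells weighted equally, 43 with 4000 to 12000 UMIs and 53 without cells holding Mki67 or Top2a. With clusters weighted equally the ratios of 89 named genes moved past their counting interval. In the Foxp3-undetected cells (61 and 78) they were 186 and 259, 21 and 28, and 13 and 17 under the first 3 of these, 103 were higher with the other total and 109 with clusters weighted equally. In the spleen members (69 and 34) they were 212 and 138, 24 and 10, 19 and 6, and 248 and 114, the other total gave 113 and 78, and equal clusters 68 lower.

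Some genes changed sign in the LN members. With 4000 to 12000 UMIs a cell, the ratios were -0.66 for Hist1h1b, -0.17 for Plk1, -0.17 for Cenpf, -2.59 for Birc5, -2.17 for Tpx2, -0.76 for Nusap1, -1.40 for Ccna2, -1.64 for Mki67, -0.53 for Stmn1, -0.081 for H2-Ab1, 0.55 for Il10 and -0.28 for the proliferation list. Without cells holding Mki67 or Top2a they were -0.41 for Hist1h1b, -1.56 for Plk1, -1.61 for Birc5, -0.82 for Tpx2, -0.82 for Nusap1, -1.56 for Ccna2 and -0.72 for H2-Ab1. The cells left out there were picked by 2 division genes, so the ratios of other division genes are no independent check. H2-Ab1 was at -0.055 with the longer exclusion, -0.29 with cells weighted equally and -0.48 without the deepest 5% of cells. Il10 was at 0.62 with at least 2 Foxp3 UMIs, 0.75 without the deepest 5%, 0.035 with equal clusters and 0.41 without the top cell. Ifitm1 was at 2.32 and the list of receptor-induced early genes at -0.21 with at least 2 Foxp3 UMIs.

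In the Foxp3-undetected cells, Hist1h1b was at -0.044, Cenpf at -0.37, Nusap1 at -0.44 and Stmn1 at -0.13 with cells weighted equally, and Ccna2 at -0.59 with 4000 to 12000 UMIs. There Ccl5 was at -0.052, Ifitm3 at 0.11 and Top2a at -0.21 with equal clusters, and Hist1h1b at -0.62, Ifitm3 at 0.013 and Ccna2 at -0.26 without dividing cells. In the spleen, Penk was at 0.77, S100a4 at 0.10 and Scd2 at 0.17 with at least 2 Foxp3 UMIs, and Ifit3 at -0.018 with equal clusters. The cause of these changes was not tested. Cd79b with the longer exclusion, and Mki67 and Top2a without dividing cells, could give no value. Aldh1l1 (57 and 0 UMIs) and Cd160 (11 and 0 UMIs) gave no finite ratio in LN members with at least 2 Foxp3 UMIs.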
